A study of Rattus norvegicus with 13 samples.

Results

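The left ventricle of pregnant rats fed L-NAME was compared with that of controls on 9 of the 13 arrays of the series, 4 of them titled L-NAME-fed and 5 titled control heart. The arrays were taken by these titles, with earlier results of these data known. The remaining 4 arrays, from rats given methionine, entered the fit only to estimate the spread. All rats were female Sprague Dawley, on standard chow. The L-NAME group drank water with 1 g/L L-NAME on days 1 to 20 of gestation, the control group drank water without it, and hearts were taken on day 20 or 21. Parity is not in the labels. The study's text describes rats mated repeatedly, and it covers control and methionine arrays but not those with L-NAME. Whether each array held the RNA of a separate rat is not stated in the labels, so p-values measure only the spread between these arrays.

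L-NAME is an arginine analog that inhibits NO synthases, the enzymes that make NO from arginine. NO made in the endothelium activates soluble guanylate cyclase in neighboring cells, the cGMP formed activates protein kinase G, and phosphodiesterases break the cGMP down. Asymmetric dimethylarginine is a natural inhibitor of the same enzymes and is degraded by the Ddah enzymes. In the heart NO tempers contraction, oxygen use and the growth of myocytes, and in pregnancy it helps the circulation to dilate. Rats given L-NAME through pregnancy become hypertensive and serve as a model of preeclampsia. Blood pressure was not analysed here.

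Each transcript was read on the Affymetrix array by 1 or more probe sets, groups of short probes that mostly lie near the 3′ end. The value of a probe set was its MAS5 signal, a linear intensity, taken here to log2, and a log2 change is the L-NAME mean minus the control mean with its standard error. A probe set is called bright where its mean log2 signal over the 13 arrays was at or above the median of 31042 probe sets. Ventricular markers were present as the tissue label requires: 15 of 16 were bright, and Myh6, Atp2a2 and Pln lay in the brightest 10% of genes. Skeletal muscle, nerve and red cell markers were mostly below the median signal (12 of 17, 12 of 15 and 6 of 10).

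The control probe sets of the manufacturer separated the groups. The log2 ratio of 3′ to 5′ signal for β-actin, which rises when RNA is degraded or copied incompletely, was 3.47 ± 0.14 (SD, n = 5) in the controls and 2.48 ± 0.16 (SD, n = 4) with L-NAME, with ranges of 3.31 to 3.67 and 2.32 to 2.70. The same ratio for Gapdh was 1.18 ± 0.11 (SD, n = 5) and 0.56 ± 0.09 (SD, n = 4). Neither pair of ranges overlapped, and the exact permutation test gave p = 0.0159 for each (2-sided), the smallest value that 4 against 5 arrays allow. β-actin itself was higher with L-NAME at its 5′, middle and 3′ probe sets, by 2.18, 2.28 and 1.19. The mean of 18 spike-in controls, transcripts added in known amounts during labelling or hybridization, was lower with L-NAME by 0.40 on the log2 scale (exact permutation test p = 0.0159). Median signals ran from 25.7 to 27.2 in the controls and from 34.2 to 36.9 with L-NAME, and the highest signals from 4782 to 5531 and from 3093 to 3547. The brightest signals lay lower and low to middle signals higher on the L-NAME arrays. Median changes over genes were -0.33 in the brightest 10%, 0.20 at log2 signals of 2.53 to 4.32 and -0.02 in the dimmest 10%. These differences followed the same split of arrays as the treatment, and the effects of L-NAME and of RNA quality or labelling cannot be told apart.

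**Figure D1:**
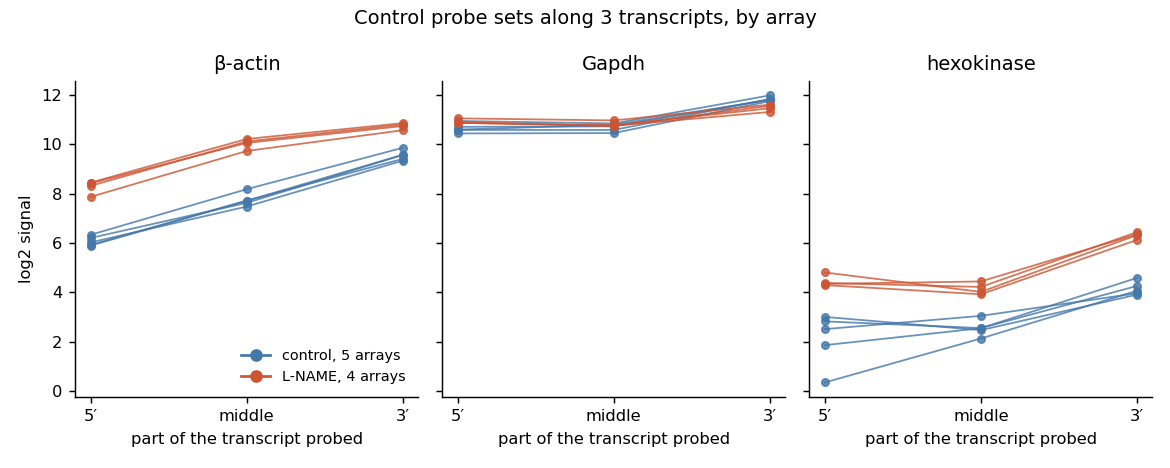
Log2 signal of the 5′, middle and 3′ control probe sets of β-actin, Gapdh and hexokinase (y axis) along the transcript (x axis). Each line is 1 array, blue for the 5 controls and orange for the 4 L-NAME arrays. The β-actin and hexokinase lines of the groups are apart at every position, and the rise from 5′ to 3′ is steeper in the controls for β-actin.

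Among 31042 probe sets, 8908 were higher with L-NAME (28.7%) and 5275 lower (17%) at an adjusted p under 0.05 on the signals as deposited. The direction of this split depended on the scaling. The share of calls that were higher was 62.8% as deposited, 34.9% after each array was centred on its median and 50.1% after quantile normalization, which gives all arrays the same distribution. The median change over all probe sets was 0.22, -0.21 and -0.01 in the 3 scalings. A gene is therefore described below as higher or lower where its brightest probe set passed an adjusted p of 0.05 in the same direction under all 3 scalings. Of 14217 genes with a probe set of their own, 1563 were higher (11%) and 3198 lower (22.5%) by this rule. The shares moved with signal. In the brightest 10% of genes 1.13% were higher and 37.4% lower, and in genes just above the middle of the range (log2 signals of 6.53 to 7.28) 18.7% and 27.8%.

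Probe sets of the same gene often moved in opposite directions. Myh6 encodes α-myosin heavy chain, the fast motor of the rat ventricle. Its brighter probe set was at 12.14, 12.21, 12.19, 12.29 and 12.30 in the controls and at 11.38, 11.54, 11.57 and 11.35 in the L-NAME arrays, and its dimmer probe set at 9.0, 9.04, 8.87, 9.11 and 8.66 in the controls and at 9.91, 10.16, 10.16 and 9.63 in the L-NAME arrays. The brighter probe set fell by 0.77 (SE 0.10) and the dimmer one rose by 1.03 ± 0.21, both without overlap of the groups. Myh7, the slow β-myosin heavy chain, gave -0.23 ± 0.10 (adjusted p = 0.0909) at its bright probe set and 1.39 ± 0.31 (adjusted p = 0.00164) at its dimmer one, and the bright value changed sign to 0.23 after quantile normalization. Atp2a2, the Ca2+ pump of the sarcoplasmic reticulum, fell at both brighter probe sets (-0.72 and -0.45) and rose at the dimmest bright one (0.93). For Vegfa, the vascular growth factor, the values were -0.13 ± 0.12 (adjusted p = 0.422) and 1.02 ± 0.21 (adjusted p = 0.000667). No direction is given for these 4 genes.

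This was a general feature. Among 1988 genes with 2 or more bright probe sets, the median change was -0.08 at the brightest and 0.60 at the dimmest bright probe set, and -0.06 and 0.38 after quantile normalization. The dimmer probe set gave the higher change in 1464 genes (73.6%), and in 83.6% of the 923 genes whose probe sets lay 2 or more log2 units apart. Called probe sets pointed in both directions in 493 of these genes on the signals as deposited and in 267 under all 3 scalings. Genes were therefore favored whose bright probe sets all moved the same way. Of the 1988 genes, 103 were higher at every bright probe set under the 3 scalings (5.18%) and 115 were lower (5.78%), and the groups did not overlap at any bright probe set for 83 and 87 of them. Since brightness was a mean over 13 arrays, a gene could pass through the group where it was higher. At least 1 bright probe set had a control mean under the limit, a log2 signal of 4.87, in 33 of the 103 higher genes, and an L-NAME mean under it in 14 of the 115 lower ones, so that part of this agreement was set by the filter.

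**Figure D2:**
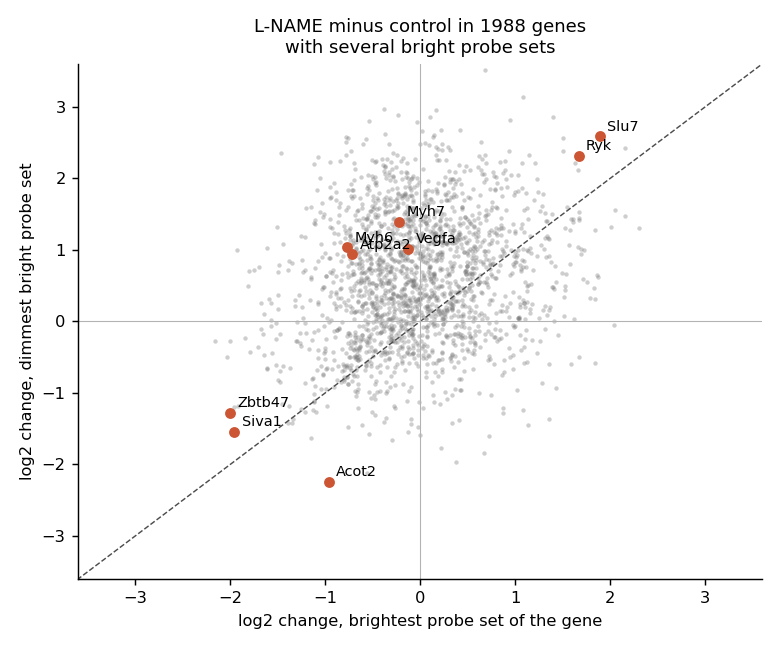
Log2 change (L-NAME minus control, signals as deposited) of the brightest probe set (x axis) and of the dimmest bright probe set (y axis) of 1988 genes with several bright probe sets, 1 point per gene, with equal changes on the dashed line. Most points lie above the line. Myh6, Myh7, Atp2a2 and Vegfa lie in the upper left, where the probe sets disagree, while Slu7, Ryk, Siva1, Zbtb47 and Acot2 moved one way at both.

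The 12 genes with the largest rises shared by all bright probe sets were Slu7, Ryk, Cbl, Epha4, Stc1, Unkl, Isoc2b, Eif4g1, Sdc1, Ankrd11, Cks1b and Slc16a6. Each was read by 2 bright probe sets, and the smaller of the changes ran from 1.42 to 1.89. Groups that did not overlap were a condition of this choice. In 7 of the 12, namely Slu7, Ryk, Cbl, Epha4, Stc1, Isoc2b and Sdc1, at least 1 of the bright probe sets had a control mean under the brightness limit and passed it only with the arrays of other groups. Slu7, a splicing factor that helps choose the 3′ splice site, was at 5.33, 5.20, 4.57, 5.19 and 4.86 in the controls and at 7.12, 6.81, 6.95 and 6.79 in the L-NAME arrays at one probe set. It was at 5.24, 5.29, 4.28, 4.08 and 4.08 in the controls and at 7.42, 7.09, 7.31 and 6.89 in the L-NAME arrays at the other. The changes were 1.89 ± 0.18 (adjusted p = 5.07e-07) and 2.58 ± 0.26 (adjusted p = 8.25e-07), and the lowest L-NAME array was above the highest control at both. Ryk, a Wnt receptor with an inactive kinase domain, was at 5.44, 5.59, 5.04, 5.35 and 5.40 in the controls and at 6.98, 7.04, 6.99 and 7.09 in the L-NAME arrays at its brighter probe set. The changes of Ryk were 1.66 ± 0.17 and 2.31 ± 0.21, and the 4 L-NAME arrays lay within 0.11 of each other at the brighter one.

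Several of these genes act in signaling at the cell surface. Cbl, the ubiquitin ligase that ends receptor tyrosine kinase signaling, rose by 1.63 and 2.21. Epha4, a receptor for ephrins, rose by 2.05 and 1.56, and Sdc1, the heparan sulfate proteoglycan syndecan-1, by 1.66 and 1.44. Stc1, the secreted glycoprotein stanniocalcin-1, was at 5.66, 5.93, 5.93, 5.41 and 6.24 in the controls and at 7.40, 7.68, 7.29 and 7.13 in the L-NAME arrays, a change of 1.54 ± 0.33 (adjusted p = 0.00107). Eif4g1, the scaffold of the translation initiation complex, was at 6.48, 6.32, 5.67, 6.27 and 5.79 in the controls and at 8.36, 8.31, 8.21 and 8.17 in the L-NAME arrays (change 2.16 ± 0.20, adjusted p = 4.47e-07), and its second bright probe set rose by 1.48. Cks1b, which binds cyclin-dependent kinases, was at 6.97, 7.01, 6.92, 6.88 and 6.89 in the controls and at 8.75, 8.19, 8.55 and 8.65 in the L-NAME arrays (change 1.60 ± 0.16, adjusted p = 5.36e-07), and its second probe set rose by 1.42. Slc16a6 is a carrier of the monocarboxylate transporter family and rose by 1.67 and 1.42.

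The 12 genes with the largest falls shared by all bright probe sets were Siva1, Anks1a, Smim27, Rita1, Zbtb47, Gpr146, Dmac2l, Chd1l, Cmklr1, Pcdh20, Aopep and Xylt2, with smaller changes of -1.54 to -1.13, chosen in the same way. For Chd1l, Cmklr1 and Pcdh20 at least 1 bright probe set had an L-NAME mean under the brightness limit. Siva1, a pro-apoptotic adaptor of CD27, was at 8.85, 8.55, 8.85, 8.30 and 8.76 in the controls and at 6.79, 6.63, 6.60 and 6.80 in the L-NAME arrays. Its changes were -1.96 ± 0.12 (adjusted p = 6.11e-09) and -1.54 ± 0.12 (adjusted p = 8.62e-08). Zbtb47, a zinc finger protein, was at 7.20, 7.38, 7.33, 7.31 and 7.47 in the controls and at 5.21, 5.58, 5.32 and 5.23 in the L-NAME arrays (change -2.0 ± 0.11, adjusted p = 4.66e-09), and its second probe set fell by 1.28 (SE 0.19). Anks1a, an adaptor of Eph receptors, was at 10.37, 10.08, 10.25, 10.44 and 10.25 in the controls and at 8.95, 8.81, 8.96 and 8.83 in the L-NAME arrays (change -1.39 ± 0.16, adjusted p = 3.42e-06), one of the few with both probe sets at high signal.

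Receptors and enzymes made up much of the rest. Gpr146, an orphan G protein-coupled receptor linked to plasma cholesterol, was at 9.80, 9.52, 9.66, 9.35 and 9.61 in the controls and at 8.61, 8.39, 8.52 and 7.79 in the L-NAME arrays (change -1.26 ± 0.16, adjusted p = 6.42e-06). Cmklr1, the receptor of the adipokine chemerin, was at 6.77, 6.02, 6.43, 6.36 and 7.23 in the controls and at 4.06, 4.27, 4.74 and 5.49 in the L-NAME arrays (change -1.92 ± 0.29, adjusted p = 5.25e-05), and its dimmer bright probe set fell by 1.18 (SE 0.21). Dmac2l, a protein of the ATP synthase stalk region, fell by 1.21 and 1.27, and Chd1l, a chromatin remodeler that binds poly(ADP-ribose), by 1.96 and 1.19. Aopep, an aminopeptidase, and Xylt2, which starts glycosaminoglycan chains on proteoglycans, fell by 1.15 and 1.63 and by 1.13 and 1.24. Dim probe sets were left out of this choice, and that of Xylt2 gave 4.10 ± 0.63.

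Genes with exactly 1 bright probe set could not be checked this way. Over all genes 11% were higher and 22.5% lower under the 3 scalings, with overlap allowed. Of 9393 genes with at least 1 bright probe set, 1988 had 2 or more. Among those with exactly 1, 845 were higher and 1883 lower with no overlap under the 3 scalings. In 76 and 124 of these the mean of the lower group was under the brightness limit. The largest rise among the probe sets that passed was Star, which moves cholesterol into mitochondria for steroid synthesis. It was at 3.68, 3.81, 3.63, 4.59 and 2.69 in the controls and at 7.35, 7.55, 7.54 and 6.85 in the L-NAME arrays, a change of 3.64 ± 0.63 (adjusted p = 0.000175). Its control mean of 3.68 and that of RT1-A (4.04) were under the limit, so that both were in this class through arrays where they were higher. The second, dim probe set of Star gave -0.43 (95% interval -2.07 to 1.20, adjusted p = 0.686). The next were RT1-A (2.79) and RT1-Da (2.41), chains of class I and class II major histocompatibility molecules, the GTPase Arf5 (2.52), Wac (2.41) and Lysmd3 (2.38). RT1-Da was at 7.98, 7.71, 7.79, 7.96 and 7.84 in the controls and at 10.12, 9.91, 10.35 and 10.69 in the L-NAME arrays. RT1 genes belong to families of near-identical, polymorphic copies, so that their single probe sets cannot be assigned to 1 gene with certainty.

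The largest falls with 1 bright probe set were Ecscr, Hgs, Zfp580, Ptpn23, C2cd4b and Hsf4. Ecscr, an endothelial surface protein, was at 8.80, 8.18, 8.69, 8.32 and 8.96 in the controls and at 5.33, 4.36, 5.79 and 5.25 in the L-NAME arrays (change -3.40 ± 0.23, adjusted p = 1.77e-08). Hgs, a subunit of the endosomal sorting machinery, was at 8.27, 7.90, 8.46, 8.42 and 8.57 in the controls and at 5.27, 5.15, 5.09 and 5.44 in the L-NAME arrays (change -3.09 ± 0.14, adjusted p = 1.19e-09). Ptpn23 serves the same sorting pathway and was at 6.55, 6.97, 7.45, 7.07 and 7.06 in the controls and at 4.22, 4.28, 4.30 and 4.41 in the L-NAME arrays (change -2.72 ± 0.16, adjusted p = 7.78e-09). The summed linear signal of 18 endothelial markers, as deposited, was lower too, at 11303 to 12606 in the controls and 8916 to 9715 with L-NAME. The highest signals of the L-NAME arrays lay lower as well, as given above. The median change of the markers was -0.17 as deposited and -0.14 after quantile normalization, against 0.01 and -0.14 over all genes. Their part in the fall of Ecscr was not tested. In tissue samples fewer cells of a type and less RNA per cell cannot be told apart. Zfp580 fell by 3.02, C2cd4b fell by 2.71 and the heat shock factor Hsf4 fell by 2.59. The L-NAME means of Zfp580, Ptpn23 and Hsf4 were under the brightness limit.

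The β-actin ratio was also added to the fit as a covariate. Since the ratio itself differed between the groups without overlap, the errors of this fit were larger. It called 527 probe sets higher and 493 lower. Of the 12 and 12 genes with concordant probe sets, 3 and 3 were still called at their brightest probe set, namely Cbl, Eif4g1, Ankrd11, Siva1, Smim27 and Zbtb47. Of the 12 genes with 1 bright probe set, 6 were, namely Arf5, Wac, Ecscr, Hgs, Zfp580 and Ptpn23. Over all 14217 genes, 177 higher and 400 lower genes kept their call.

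Gene lists were read by the brightest probe set of each gene, and their counts are set beside the shares over all genes, 11% higher and 22.5% lower. A gene with no bright probe set was read by a dim one, as were 291 of the 1563 higher and 350 of the 3198 lower genes. Where a list's shares lie near these, its members were called about as often as genes as a whole, and no list was tested.

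**Figure D3:**
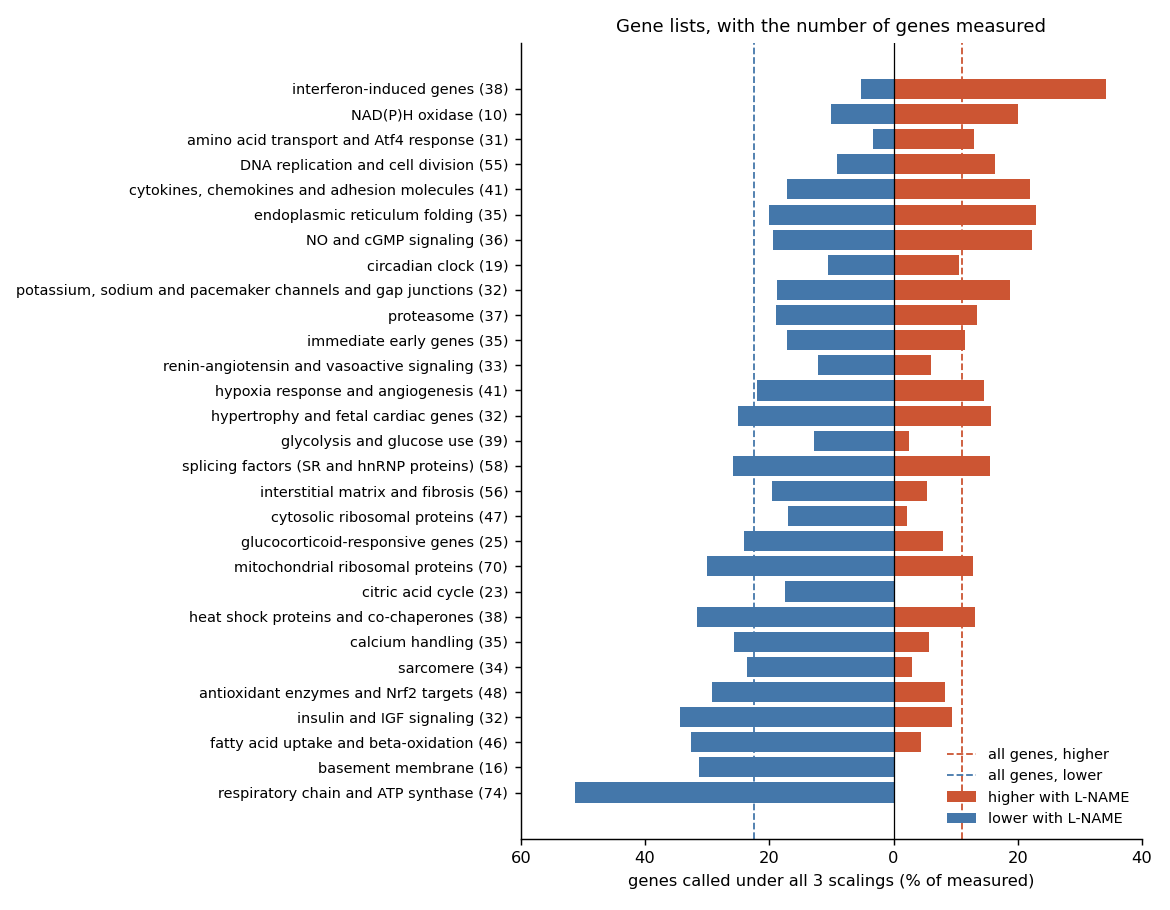
Share of the measured genes of 29 lists (number in brackets) that were higher (orange, to the right) or lower (blue, to the left) with L-NAME under all 3 scalings, in percent. Dashed lines give the shares over all 14217 genes, 11% and 22.5%. Interferon-induced genes extend farthest to the right, with 34.2%, and the respiratory chain farthest to the left, with 51.4%.

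Of 36 measured genes of NO and cGMP signaling, 8 were higher and 7 lower (22.2% and 19.4%), and the median change was 0.37 as deposited and 0.01 after quantile normalization. The NO synthases themselves were dim. Nos3, the endothelial enzyme, was at 3.87, 3.83, 4.21, 4.15 and 4.19 in the controls and at 3.65, 5.19, 4.83 and 4.32 in the L-NAME arrays, a change of 0.44 (95% interval -0.22 to 1.10, adjusted p = 0.268), and quantile normalization turned its sign to -0.02. Nos1 gave -0.61 (-1.34 to 0.11) and was below adjusted p = 0.05 only after centring (0.0229) and quantile normalization (0.0165). Nos2, the inducible enzyme, gave -0.53 (-1.96 to 0.90), and without the second L-NAME array, at -0.40, it gave 0.46. The intervals of Nos1 and Nos2 held a 2-fold fall and that of Nos3 a 2-fold rise, so that changes of this size were not excluded.

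Partners of the synthases moved in both directions. Nosip, which binds endothelial NO synthase and moves it off the membrane, was at 7.45, 7.50, 7.42, 7.34 and 7.35 in the controls and at 5.94, 5.45, 5.25 and 5.92 in the L-NAME arrays. Its change was -1.77 ± 0.14 (adjusted p = 7.2e-08), and it was still called with the β-actin ratio as covariate. Ddah1, the main enzyme that degrades asymmetric dimethylarginine, was at 5.39, 6.24, 5.84, 5.89 and 5.48 in the controls and at 7.82, 7.53, 7.50 and 7.08 in the L-NAME arrays, a change of 1.71 ± 0.20 (adjusted p = 3.26e-06). Ddah2 was at 5.33, 5.05, 5.80, 5.42 and 5.85 in the controls and at 7.52, 6.36, 6.66 and 7.37 in the L-NAME arrays, a change of 1.49 ± 0.23 (adjusted p = 6.34e-05). Both were higher in every L-NAME array than in any control, while the fit with the β-actin covariate gave -0.33 for Ddah2.

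Enzymes of the cofactor tetrahydrobiopterin also split. Qdpr, which regenerates it, was at 7.06, 7.37, 7.58, 7.39 and 7.43 in the controls and at 9.05, 8.81, 9.08 and 8.86 in the L-NAME arrays (change 1.59 ± 0.14, adjusted p = 2.01e-07), whereas Pts, which makes it, gave -0.71 ± 0.20 (adjusted p = 0.00679), and Gchfr, a regulator of the first step, gave -0.61 ± 0.16 (adjusted p = 0.00403). Nostrin, another protein that draws endothelial NO synthase inward, fell by 1.06 (SE 0.28). Arg2, an arginase that competes for arginine, was dim and rose by 1.87 ± 0.33, from 2.55 ± 0.53 to 4.43 ± 0.28 (SD, n = 5 and 4).

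Downstream of NO, Gucy1b1, the β1 subunit of soluble guanylate cyclase, was at 6.46, 6.58, 6.50, 6.59 and 6.67 in the controls and at 7.12, 7.23, 6.72 and 7.13 in the L-NAME arrays at its brighter probe set. It was at 5.96, 5.98, 5.89, 5.83 and 5.91 in the controls and at 7.31, 7.25, 6.88 and 7.47 in the L-NAME arrays at its other bright one. The first change was 0.49 (adjusted p = 0.00401) and did not hold after centring (0.68) or quantile normalization (0.0721), and the second was 1.31 ± 0.15 (adjusted p = 2.19e-06) and held. The α1 subunit Gucy1a1 gave 0.40 ± 0.09 (adjusted p = 0.00182), and -0.02 after centring. Pde5a, a cGMP phosphodiesterase, was very dim, and its sign turned from 0.20 to -0.19 with quantile normalization. Pde3a, inhibited by cGMP, was dim too and rose by 2.89 ± 0.57. Npr3, the clearance receptor of natriuretic peptides, rose by 1.76 ± 0.22, and Npr2, the receptor of C-type peptide, fell by 0.44 (SE 0.12).

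**Figure D4:**
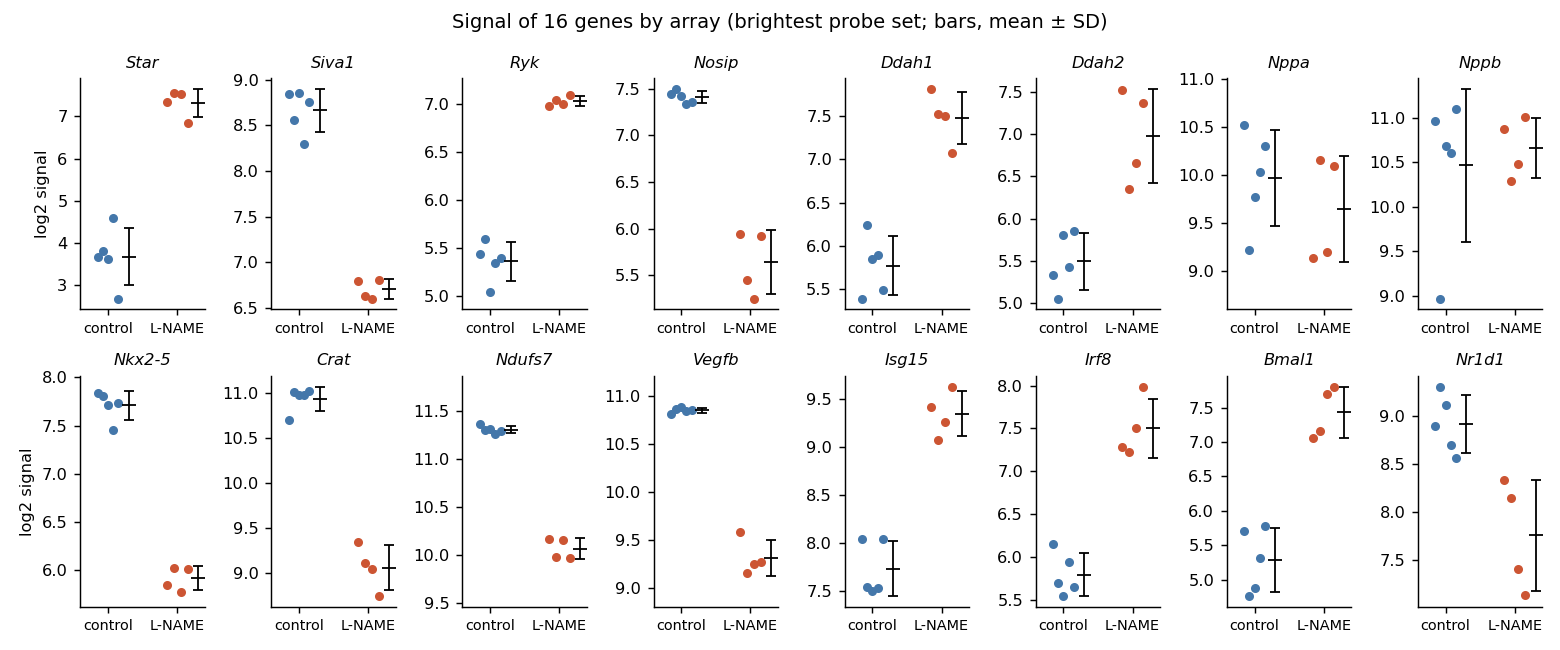
Log2 signal (y axes, each with its own range) of 16 genes on the 5 control arrays (blue) and the 4 L-NAME arrays (orange), read by the brightest probe set, with the mean ± SD of each group in black. Nppa and Nppb overlap between the groups, while the other 14 genes do not.

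Genes of cardiac load were read next, since L-NAME is known to raise arterial pressure. Nppa, atrial natriuretic peptide, was at 10.51, 9.22, 9.77, 10.03 and 10.29 in the controls and at 9.13, 10.15, 9.20 and 10.09 in the L-NAME arrays, and the groups overlapped. Its change was -0.32 (95% interval -1.0 to 0.35, adjusted p = 0.447). Nppb, the B-type peptide, was at 10.96, 8.97, 10.68, 10.61 and 11.10 in the controls and at 10.87, 10.29, 10.48 and 11.01 in the L-NAME arrays, a change of 0.20 (-0.50 to 0.90, adjusted p = 0.667) whose sign turned to -0.23 after centring and to -0.18 without the second control array, at 8.97. For neither peptide was a rise of more than 2-fold within the interval on the signals as deposited. After quantile normalization Nppa stood at -0.18 and Nppb at 0.53, and with the β-actin covariate Nppa stood at 1.14 and Nppb at -0.66. The limit given by the intervals therefore applies to the signals as deposited alone.

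Of 32 measured genes of hypertrophy and the fetal program, 5 were higher and 8 lower (15.6% and 25%). Acta1, skeletal α-actin, was at 9.54, 9.31, 9.81, 9.38 and 9.69 in the controls and at 10.35, 10.14, 10.06 and 10.20 in the L-NAME arrays (change 0.64 ± 0.14, adjusted p = 0.00156). It passed the test as deposited and after quantile normalization (0.84) but not after centring (0.22, adjusted p = 0.261), and gave -0.15 with the β-actin covariate. Rcan1, a target and brake of calcineurin, rose by 1.28 ± 0.24, Hopx by 0.96, Gata6 by 1.18, and Tnni1, the fetal troponin I, by 1.59 at low signal. Ppp3ca, the catalytic subunit of calcineurin, fell by 1.26 (SE 0.07) and was still called with the β-actin covariate, while its second bright probe set gave -0.34, or -0.12 after quantile normalization.

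Transcription factors of the same list were called in both directions, with Gata6 and Hopx higher, as given above, and 5 others lower. Nkx2-5, a factor of the cardiac lineage, was at 7.83, 7.80, 7.72, 7.46 and 7.74 in the controls and at 5.84, 6.02, 5.77 and 6.01 in the L-NAME arrays, a change of -1.80 ± 0.11 (adjusted p = 6.82e-09), which was also called with the β-actin covariate. Hand2 fell by 1.31, Mef2d by 1.07, Gata4 by 0.75 and Tbx5 by 0.49, with adjusted p values of 4.67e-07, 9.48e-06, 0.000138 and 0.00932. Xirp1, an actin-binding protein of the intercalated disc, was at 10.19, 9.93, 10.37, 10.18 and 10.52 in the controls and at 9.18, 8.95, 8.56 and 8.62 in the L-NAME arrays (change -1.41 ± 0.17, adjusted p = 4.16e-06). Of 34 sarcomere genes 1 was higher, Capzb, which caps the actin filament at the Z disc (0.87), and 8 were lower, among them Mybpc3 (-0.71), Actn2 (-0.72) and Pdlim5 (-0.70). After quantile normalization these 3 were at -0.23, -0.34 and -0.18, and the list's median turned from -0.34 to 0.06.

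In calcium handling 2 of 35 genes were higher and 9 lower (5.71% and 25.7%). Cacna2d1, a subunit of the L-type calcium channel, was at 6.81, 7.09, 6.67, 6.71 and 6.33 in the controls and at 8.42, 8.51, 8.59 and 8.23 in the L-NAME arrays (change 1.72 ± 0.15, adjusted p = 1.97e-07). Pln, the inhibitor of the Ca2+ pump, fell by 0.63 and 0.34 at its bright probe sets, but these stood at -0.11 and 0.19 after quantile normalization. S100a1 and Orai1 fell by 0.51 and 0.71. Among potassium, sodium and gap junction channels 6 of 32 were higher and 6 lower. Kcnj8, the pore of the vascular ATP-sensitive potassium channel, was at 6.16, 6.38, 6.02, 6.18 and 5.79 in the controls and at 7.80, 7.58, 7.41 and 7.98 in the L-NAME arrays (change 1.59 ± 0.14, adjusted p = 2.2e-07). Scn4b and Gjc1 rose by 1.27 and 1.16, and Gja4, the connexin 37 of arterial endothelium, fell by 1.13 (SE 0.12).

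Energy metabolism held the list with the largest share of falls. Of 74 measured genes of the respiratory chain and ATP synthase, 38 were lower (51.4%) and 0 higher, with a median change of -0.55 as deposited, -0.98 after centring and -0.13 after quantile normalization. The medians over all genes were 0.01, -0.42 and -0.14. These genes were very bright: 71 of the 74 lay in the brightest 10% of all genes, where 36 of 71 were lower (50.7%) against 37.4% of all 1422 genes there. Cytosolic ribosomal proteins, of which 40 of 47 lay in the same 10%, had 6 of 40 lower (15%). The summed linear signal of 16 ventricular markers, as deposited, was 42651 to 46558 in the controls and 28656 to 32983 with L-NAME. Of these markers 13 lay in the same 10%, and the highest signals of the L-NAME arrays lay lower too, as given above. The median change of the markers was -0.57 as deposited and -0.03 after quantile normalization. Their part in the falls of the respiratory chain was not tested.

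The members were spread over the complexes. Ndufs7, an iron-sulfur subunit of complex I, was at 11.36, 11.30, 11.30, 11.25 and 11.28 in the controls and at 10.16, 9.97, 10.15 and 9.97 in the L-NAME arrays, a change of -1.24 ± 0.10 (adjusted p = 1.05e-07). Ndufa3 and Ndufb2 of the same complex fell by 1.06 and 1.02 (SE 0.08 and 0.07), and Uqcrq of complex III by 0.91 (SE 0.07). In complex IV Cox6a2, the muscle form of subunit 6A, fell by 0.98, and in ATP synthase Atp5mf fell by 0.99. After quantile normalization Cox6a2 stood at -0.53, Atp5mf at -0.60, Ndufs7 stood at -0.96, Ndufa3 at -0.65, Ndufb2 at -0.65 and Uqcrq at -0.46. Ndufs7, Ndufa3 and Ndufb2 were also called with the β-actin covariate.

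**Figure D5:**
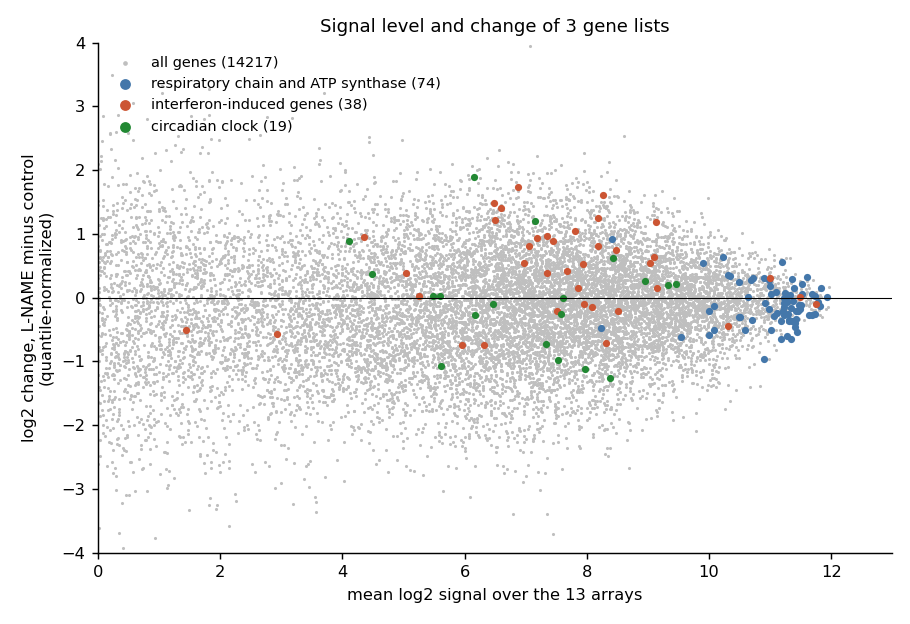
Log2 change after quantile normalization (y axis) against the mean log2 signal over 13 arrays (x axis) of 14217 genes (grey) and of 3 lists. The respiratory chain (blue, 74 genes) sits at high signal and mostly below 0, and interferon-induced genes (orange, 38 genes) sit at middle signal and mostly above 0, while the clock genes (green, 19 genes) lie on both sides. The dimmest genes are outside the plotted range.

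Of 46 measured genes of fatty acid uptake and β-oxidation, 15 were lower and 2 higher (32.6% and 4.35%), and the median was -0.34 as deposited and -0.02 after quantile normalization. Of the 46, 27 lay in the brightest 10% of all genes, where 8 of the 27 were lower (29.6%) against 37.4% of all genes there. Crat, which exchanges acetyl groups between CoA and carnitine, was at 10.70, 11.01, 10.97, 10.97 and 11.02 in the controls and at 9.35, 9.11, 9.05 and 8.74 in the L-NAME arrays, a change of -1.87 ± 0.10 (adjusted p = 3.2e-09). Cpt1a, the liver-type carnitine palmitoyltransferase that admits long-chain fatty acids to mitochondria, was at 10.17, 10.53, 10.22, 10.47 and 10.34 in the controls and at 8.87, 9.23, 9.14 and 8.86 in the L-NAME arrays (change -1.32 ± 0.11, adjusted p = 1.03e-07). Ucp2, an uncoupling protein of the inner membrane, was at 10.78, 10.72, 10.61, 10.49 and 10.54 in the controls and at 8.96, 9.15, 9.48 and 9.09 in the L-NAME arrays (change -1.46 ± 0.10, adjusted p = 3.13e-08). All 3 were lower in every L-NAME array, and their changes stood at -1.74, -1.24 and -1.34 after quantile normalization.

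Acot2, a mitochondrial acyl-CoA thioesterase, was read by 3 bright probe sets, and they fell by 0.97, 0.90 and 2.24 and stood at -0.52, -0.46 and -2.42 after quantile normalization. Its near relative Acot1 gave -1.90 (adjusted p = 0.0115), but -0.62 (adjusted p = 0.0932) with 50 added to every signal and 1.34 with the β-actin covariate, and probes for these copies may share transcripts. The acyl-CoA dehydrogenases Acadvl and Acadm fell by 0.94 and 0.64, or by 0.62 and 0.18 after quantile normalization, whereas Acads, the short-chain enzyme, rose by 1.39 and 1.38. Ppargc1a, the coactivator of mitochondrial genes, gave -0.04 (-0.25 to 0.17) and 0.09 (-0.16 to 0.33) at its bright probe sets, of which the first changed sign to 0.01 after quantile normalization.

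In the citric acid cycle 4 of 23 genes were lower and 0 higher. Me1, the cytosolic malic enzyme, fell at both bright probe sets by 0.80 and 0.83, and Idh3b and Ogdh fell by 0.78 and 0.63. After quantile normalization Me1 stood at -0.61 and -0.85, Idh3b at -0.35 and Ogdh at -0.31. In glycolysis and glucose use 5 of 39 were lower, among them the pyruvate dehydrogenase subunit Pdhb (-0.76, or -0.39 after quantile normalization), and Pfkl, the liver-type phosphofructokinase, was higher (1.10). These shares, 17.4% and 12.8% lower, were under the share over all genes.

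Interferon-induced genes held the largest share of rises. Of 38 measured, 13 were higher and 2 lower (34.2% and 5.26%), and the median change was 0.57 as deposited, 0.15 after centring and 0.48 after quantile normalization, above the medians over all genes under each scaling (0.01, -0.42 and -0.14). Of the 38, 35 had a bright probe set. Over all genes the share higher was largest at middle signals, 18.7% at log2 signals of 6.53 to 7.28. Isg15, a ubiquitin-like protein attached to other proteins after interferon, was at 8.04, 7.54, 7.49, 7.53 and 8.04 in the controls and at 9.42, 9.08, 9.26 and 9.63 in the L-NAME arrays. Its change was 1.62 ± 0.15 (adjusted p = 4.11e-07), and no L-NAME array overlapped the controls. Irf8, a transcription factor of myeloid cells, was at 6.15, 5.69, 5.54, 5.94 and 5.65 in the controls and at 7.28, 7.22, 7.51 and 7.99 in the L-NAME arrays (change 1.71 ± 0.17, adjusted p = 5.29e-07). Irgm, an interferon-induced GTPase, was at 6.31, 5.86, 6.13, 5.95 and 5.98 in the controls and at 7.40, 7.33, 7.29 and 7.89 in the L-NAME arrays (change 1.43 ± 0.15, adjusted p = 8.76e-07). Trim25, the ubiquitin ligase that activates the RNA sensor RIG-I, was at 6.22, 6.74, 5.83, 6.16 and 5.98 in the controls and at 7.27, 8.62, 8.44 and 8.12 in the L-NAME arrays (change 1.92 ± 0.24, adjusted p = 6.4e-06).

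The other 9 rises were Gbp2 (1.31), Irf2 (1.12), Bst2 (1.10), Mx1 (1.14), Mx2 (1.61), the RNA sensor Ifih1 (1.38), Ifit3 (1.10), Ifi35 (1.03) and Parp14 (1.0). Irf7, which amplifies the interferon response, and the GTPase Igtp were the 2 falls (-0.65 and -0.58). With the β-actin ratio as covariate, Irf2 and Trim25 were still called. Of 29 measured markers of leukocytes 2 were higher, Cd4 (2.04) and Cd8a (1.47), and 6 were lower, among them Cd163 (-1.61 ± 0.13, adjusted p = 7.43e-08), Cd68 (-0.84), Mrc1 (-0.59, or -0.38 after quantile normalization) and Ctss (-0.56, or -0.29). The summed linear signal of the 29 markers, as deposited, was 13816 to 16543 in the controls and 11018 to 14358 with L-NAME. Their median change was -0.09 as deposited and 0.07 after quantile normalization, and their part in the result was not tested.

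Promoters of the interferon list were read from RefSeq (GRCr8), 250 bases before each start, because these genes are known to share the interferon-stimulated response element. The letters GAAANNGAA, the core of that element, were searched on both strands. They occurred in 6 of 10 genes that were higher, in 11 of 18 that were called neither way and in both that were lower, against 7.99% of all 27457 promoters. The matches are letters, not sites of binding. Stretches around them in 5 of the higher genes are given 5′ to 3′ with the matches in capitals, of which Bst2 and Ifit3 held 2, overlapping in Bst2. Read on the other strand the match appears as TTCNNTTTC.
Irgm: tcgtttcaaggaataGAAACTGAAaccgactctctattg
Gbp2: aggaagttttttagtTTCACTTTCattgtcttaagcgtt
Bst2: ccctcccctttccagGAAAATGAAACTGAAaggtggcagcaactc
Ifih1: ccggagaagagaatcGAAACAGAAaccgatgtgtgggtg
Ifit3: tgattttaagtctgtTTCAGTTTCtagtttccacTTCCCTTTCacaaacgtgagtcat
They lie at chr10:33742589-33742627 on the minus strand (Irgm), chr2:234005682-234005720 on the plus strand (Gbp2), chr16:18255069-18255113 on the minus strand (Bst2), chr3:67684004-67684042 on the minus strand (Ifih1) and chr1:241527268-241527325 on the plus strand (Ifit3).

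Among 19 measured clock genes 2 were higher and 2 lower (10.5% each). Bmal1, the activator at the center of the clock, was at 5.71, 4.76, 4.87, 5.31 and 5.77 in the controls and at 7.06, 7.16, 7.70 and 7.80 in the L-NAME arrays, a change of 2.15 ± 0.27 (adjusted p = 7.17e-06), or 4.43-fold. Nr1d1 encodes REV-ERBα, which represses Bmal1 and is itself activated by it, and was at 8.90, 9.30, 9.12, 8.69 and 8.56 in the controls and at 8.34, 8.15, 7.41 and 7.13 in the L-NAME arrays (change -1.16 ± 0.23, adjusted p = 0.000668). Cry1, a repressor of the Bmal1 complex, was at 8.36, 8.16, 7.94, 8.05 and 8.50 in the controls and at 7.10, 6.79, 7.44 and 7.66 in the L-NAME arrays (change -0.96 ± 0.25, adjusted p = 0.0045). Tef, an output factor, rose by 1.36 ± 0.20 at its brightest probe set and gave 0.20 (adjusted p = 0.442) at the other bright one. Bmal1 was higher and Nr1d1 and Cry1 lower without overlap. The hour at which hearts were taken is not given in the sources used here. With the β-actin covariate Bmal1 gave 2.72 (adjusted p = 0.0875), Nr1d1 -1.35, Cry1 -0.85 and Tef 0.79, and none of them was called.

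REV-ERB and ROR factors bind the letters TAGGTCA, searched on both strands, which in the Bmal1 promoter began 16 bases before its start (chr1:176766297-176766327 on the plus strand). They occurred in 2.26% of all promoters of the same length and in 1 of 16 clock promoters. The stretch is shown 5′ to 3′ with the match in capitals.
Bmal1: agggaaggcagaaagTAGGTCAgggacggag

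Cytokines, chemokines and adhesion molecules gave 9 higher and 7 lower of 41 (22% and 17.1%). Il1b was at 4.11, 5.09, 4.47, 4.96 and 4.33 in the controls and at 6.28, 6.11, 5.80 and 6.68 in the L-NAME arrays (change 1.62 ± 0.26, adjusted p = 7.87e-05). Its control mean of 4.59 was under the brightness limit, so that it passed as bright through arrays where it was higher. Ccl2, which attracts monocytes, was at 8.53, 7.28, 7.95, 7.95 and 7.84 in the controls and at 9.36, 8.76, 8.90 and 9.76 in the L-NAME arrays (change 1.28 ± 0.21, adjusted p = 9.85e-05). Nfkbia, the NF-κB inhibitor that NF-κB induces, was at 6.93, 7.87, 7.41, 7.40 and 7.16 in the controls and at 8.57, 8.77, 9.24 and 8.37 in the L-NAME arrays (change 1.38 ± 0.20, adjusted p = 2.88e-05). Icam1 and Sele, adhesion molecules of activated endothelium, rose by 1.09 and 2.0. Nfkb2 and Lifr fell by 1.60 and 1.29. Among 35 immediate early genes 4 were higher, Dusp5 (1.18) and the nuclear receptors Nr4a1 (2.20), Nr4a2 (1.50) and Nr4a3 (1.76), and 6 were lower, among them Maff (-1.05) and Jund (-0.54, or -0.24 after quantile normalization). The control mean of Nr4a3, 4.19, was under the brightness limit. With the β-actin covariate Dusp5 turned to -0.43. Dusp6, a phosphatase that ends ERK signaling, is counted with these by its brightest probe set (-1.06), but its 3 bright probe sets pointed in both directions (-1.02 and 2.01 at the others).

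Chaperones moved in both directions. Of 35 genes of endoplasmic reticulum folding, 8 were higher and 7 lower (22.9% and 20%): Ppib, a prolyl isomerase, was at 8.90, 8.67, 8.32, 8.45 and 8.39 in the controls and at 9.86, 9.84, 9.95 and 10.11 in the L-NAME arrays (change 1.39 ± 0.13, adjusted p = 4.03e-07), and Manf rose by 0.97, while Herpud1 and Pdia6 fell by 0.77 and 0.80. Of 31 genes of the Atf4 response, 4 were higher and 1 lower (12.9% and 3.23%). Ddit3, the factor CHOP, was at 8.0, 7.77, 7.62, 8.08 and 7.86 in the controls and at 9.20, 8.66, 8.56 and 8.89 in the L-NAME arrays (change 0.96 ± 0.13, adjusted p = 1.71e-05), and Ddit4, an inhibitor of mTOR complex 1, was at 7.18, 8.25, 7.47, 7.23 and 7.07 in the controls and at 8.47, 9.63, 9.77 and 9.0 in the L-NAME arrays (change 1.78 ± 0.31, adjusted p = 0.000175). Shmt2 and Stc2 rose by 1.0 and 2.10, and Cebpb fell by 1.34, to an L-NAME mean of 4.49, under the brightness limit. Of 38 heat shock proteins and co-chaperones, 5 were higher and 12 lower, with Stip1 at 1.18, Hspb2 at 0.99, Chordc1 at -1.09, Dnajb6 at -1.0 and Hspb1 at -1.47.

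Antioxidant enzymes were lower in 14 and higher in 4 of 48 (29.2% and 8.33%). Glrx2, the mitochondrial glutaredoxin, fell at both bright probe sets (by 1.31 and 0.28), although the groups overlapped at the second. Xdh, xanthine dehydrogenase, was at 11.02, 11.25, 10.94, 11.01 and 10.98 in the controls and at 9.89, 10.32, 10.21 and 10.09 in the L-NAME arrays (change -0.91 ± 0.09, adjusted p = 4.22e-07), and Gpx4, which reduces lipid peroxides, was at 9.59, 9.75, 9.38, 9.62 and 9.58 in the controls and at 8.93, 8.68, 8.77 and 8.76 in the L-NAME arrays (change -0.80 ± 0.09, adjusted p = 1.75e-06). Srxn1, which restores peroxiredoxins, rose by 1.46. Among 10 genes of the NAD(P)H oxidases, Nox4 (1.68 ± 0.49) and the subunit gene Ncf1 (1.56 ± 0.31) were higher, both read by dim probe sets. Nox4 was at 2.95, 1.37, 2.55, 2.55 and 3.0 in the controls and at 4.35, 4.03, 3.56 and 4.71 in the L-NAME arrays, and turned to -0.057 with the β-actin covariate. Rac1, a GTPase of the oxidase, gave -0.60 ± 0.07 at its brightest and 1.32 ± 0.14 at its other bright probe set, so that no direction is given.

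In the renin-angiotensin and vasoactive list 2 of 33 genes were higher and 4 lower. Ace, the angiotensin-converting enzyme, was at 6.14, 6.04, 5.91, 6.37 and 6.66 in the controls and at 5.12, 5.41, 4.85 and 5.80 in the L-NAME arrays (change -0.93 ± 0.21, adjusted p = 0.0017). Agt, angiotensinogen, was very dim and gave 1.42 ± 0.58 (adjusted p = 0.055), and Edn1, endothelin-1, gave -0.37 (95% interval -1.09 to 0.36, adjusted p = 0.416). Calcrl and Ramp2, which join to form the adrenomedullin receptor, moved apart: Calcrl rose by 1.36 ± 0.18 and Ramp2 fell by 0.62 (SE 0.10).

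Of 56 genes of the interstitial matrix, 3 were higher and 11 lower (5.36% and 19.6%). The fibrillar collagens Col1a1 and Col3a1 were not called. Col1a1 gave 0.53 (adjusted p = 0.0508) and -0.30 (adjusted p = 0.234) at its bright probe sets, and Col3a1 gave 0.32 (adjusted p = 0.088), or -0.10 after centring. Tgfb1 was dim and was at 4.92, 4.78, 4.85, 4.70 and 4.69 in the controls and at 3.21, 3.10, 3.11 and 2.74 in the L-NAME arrays (change -1.75 ± 0.21, adjusted p = 4.08e-06). Ccn2, the connective tissue growth factor it induces, was at 10.40, 9.97, 10.57, 10.84 and 10.38 in the controls and at 9.64, 9.58, 9.52 and 9.88 in the L-NAME arrays (change -0.78 ± 0.14, adjusted p = 0.000177). Serpinh1, the collagen chaperone, rose by 1.49 ± 0.18, and Dcn and Timp4 fell by 0.62 and 0.79, or by 0.21 and 0.90 after quantile normalization. Of 16 basement membrane genes 5 were lower and 0 higher, among them Nid2 (-1.13), Lama2 (-0.69), Lamb1 (-0.48) and Lamb2 (-0.40), and Lamb2 turned to 0.11 with the β-actin covariate and to 0.08 with the spike-in mean as covariate.

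Vascular genes were read with the markers of vessel cells. Among 18 endothelial markers 1 was higher, Esam (1.44 ± 0.15, adjusted p = 8.24e-07), and 7 were lower, among them Rasip1 (at 9.54, 9.44, 9.30, 9.30 and 9.48 in the controls and at 7.74, 7.65, 7.62 and 7.99 in the L-NAME arrays), Vwf (-1.02 ± 0.12, adjusted p = 3.72e-06) and Ptprb (-0.83 and -0.39 at its bright probe sets). Among 18 smooth muscle and pericyte markers 5 were higher and 2 lower. Pdgfrb, the receptor that recruits pericytes, was at 5.58, 5.03, 5.56, 5.15 and 5.62 in the controls and at 7.52, 7.63, 7.45 and 8.10 in the L-NAME arrays (change 2.29 ± 0.23, adjusted p = 7.95e-07), Acta2, smooth muscle α-actin, was at 5.36, 4.33, 5.05, 4.70 and 4.60 in the controls and at 6.23, 5.88, 6.71 and 7.69 in the L-NAME arrays (change 1.82 ± 0.33, adjusted p = 0.000256), and Cspg4 rose by 1.14. The control mean of Acta2, 4.81, was under the brightness limit. The summed signal of this list was 6279 to 6495 in the controls and 5982 to 7102 with L-NAME.

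In the hypoxia and angiogenesis list 6 of 41 were higher and 9 lower. Vegfb, a growth factor of coronary vessels, was at 10.82, 10.86, 10.88, 10.85 and 10.86 in the controls and at 9.58, 9.16, 9.25 and 9.28 in the L-NAME arrays (change -1.54 ± 0.12, adjusted p = 8.99e-08). Epas1, the hypoxia-inducible factor HIF-2α, was at 10.56, 10.76, 10.73, 10.81 and 10.78 in the controls and at 9.70, 9.73, 9.72 and 9.73 in the L-NAME arrays (change -1.01 ± 0.07, adjusted p = 3.92e-08). Egln1, the oxygen sensor that marks these factors for degradation, was at 9.91, 9.86, 9.65, 9.77 and 9.66 in the controls and at 8.90, 8.84, 8.87 and 8.77 in the L-NAME arrays (change -0.93 ± 0.08, adjusted p = 1.99e-07). Vegfb and Epas1 were also called with the β-actin covariate, while a dim probe set of Epas1 gave 1.94 ± 0.44. Hif1a gave -0.14 (-0.36 to 0.08, adjusted p = 0.306).

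The remaining lists were closer to the shares over all genes or were mixed, apart from insulin and IGF signaling, with 34.4% lower against 22.5%. The median change of that list was 0.06 as deposited and -0.06 after quantile normalization, and 28 of its 32 genes had a bright probe set. Over all genes the share lower rose with signal, from 16.3% at log2 signals of 4.32 to 5.59 to 37.4% in the brightest 10%. The 34.4% was within this range. In DNA replication and cell division 9 of 55 were higher and 5 lower, and the D-type cyclins Ccnd2 (1.44 ± 0.11, adjusted p = 4.46e-08) and Ccnd3 (1.04 ± 0.12, adjusted p = 2.17e-06), which bring cells into the cycle, were called with the β-actin covariate too. In insulin and IGF signaling 3 of 32 were higher and 11 lower (9.38% and 34.4%): Insr, the insulin receptor, rose at both bright probe sets (1.17 and 0.96), and Pik3r2, a regulatory subunit of phosphoinositide 3-kinase, was at 6.98, 6.74, 7.26, 7.20 and 7.48 in the controls and at 5.16, 5.18, 4.89 and 5.42 in the L-NAME arrays (change -1.97 ± 0.18, adjusted p = 2.56e-07). In the proteasome 5 of 37 were higher and 7 lower, with Psmd4 at 1.57 and Psmb5 at -1.09. Among 58 splicing factors 9 were higher and 15 lower, with Hnrnpf at 2.13 and Clk1 at -0.95. Mitochondrial ribosomal proteins were lower in 21 and higher in 9 of 70, with Mrpl54 at -1.44, and cytosolic ribosomal proteins were lower in 8 and higher in 1 of 47. Glucocorticoid-responsive genes were lower in 6 and higher in 2 of 25, with Cdkn1a at -1.12 and Fbxo32 at 1.76.

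Among markers of other cell types the share called differed from list to list. None of 10 red cell markers was called under the 3 scalings. Fibroblast markers were higher in 2 and lower in 4 of 14 (14.3% and 28.6%), adipocyte markers higher in 2 and lower in 1 of 15, and atrial markers lower in 2 of 11. Ventricular markers were lower in 6 of 16 (37.5%), a count that takes Myh6 and Atp2a2, whose bright probe sets disagreed, by the brightest. Of the 16, 13 lay in the brightest 10% of genes, where 5 were lower (38.5%) against 37.4% of all genes there. The median change of the 16 was -0.03 after quantile normalization. The 1 skeletal muscle marker called was Myh1, lower at all 5 bright probe sets (by 0.69 to 0.83, and at -0.35 after quantile normalization at the brightest), whose sequence is near that of the cardiac myosins, so that its signal cannot be assigned to 1 gene. The single nerve marker called was Pmp22, by its brightest probe set (-0.54), whose other bright probe set gave 2.80. The single mesothelial marker called was Lrrn4 (0.87). The summed signal of the 8 mesothelial markers was 840 to 1100 in the controls and 1353 to 1495 with L-NAME.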

How the data were processed

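Affymetrix Rat Genome 230 arrays of the second version were made from left ventricle RNA (Trizol, biotinylated cRNA), 1 array per sample. The values deposited by the authors are MAS5 signals, a linear intensity scaled so that the trimmed mean is the same on every array, and per the labels no further normalization is described. The number of arrays limits the precision.

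Signals were taken to log2 with no offset. 57 control probe sets were left out of 31099. limma 3.58.1 in R 4.3.3 (lmFit and eBayes with a trend) was fitted to the 13 arrays with 1 coefficient per group, and the L-NAME minus control contrast was adjusted by Benjamini-Hochberg over 31042 probe sets. The study's methods name a t-test with variance stabilization in GeneSpring and a p threshold of 0.05. The settings of the stabilization are not given, and an equal-variance t-test was run as an alternative. The platform annotation gave 1 gene symbol to 20826 probe sets, several to 436 and none to 9780, and genes were named only from the first kind. Array quality values were compared by exact permutation over arrays (scipy 1.17.1). The script was tested on simulated data.

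The arrays and gene lists were chosen with earlier results of these data known. Genes named were the 12 rises and 12 falls with the largest of their smallest changes among genes with 2 or more bright probe sets called one way without overlap in 3 scalings, the 6 and 6 largest among genes with 1 bright probe set, up to 4 members of each list with the smallest p, and 23 genes of NO, load, matrix and vessel biology whatever their values. Prkg1 and Ednra, of the same kind, were not analysed here. Further list members were named after their values were seen. Alternatives were 2 other scalings, offsets of 50 and 16, bright probe sets alone, the 9 arrays alone, no trend, t-tests, a replicate block, 2 quality covariates and each array left out in turn. 1 further promoter stretch is not reported here.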

Additional observations from a re-analysis of the deposited data

Results flagged for a closer look

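Among 416 groups of arrays, of the named genes and of some array quality values, 23 held 1 array far from the others by Dixon's test. All 23 were of genes, and chance alone gives about 1 in 20. With L-NAME, replicate 4 stood apart in Cd68 (log2 signal 8.29), Irf2 (8.17), Nid2 (8.003), Ppargc1a (9.01) and Serpinh1 (9.33), replicate 1 in Epas1 (9.70) and Nr4a1 (8.002), replicate 2 in Nos2 (-0.40) and Nr4a3 (5.26), and replicate 3 in Lrrn4 (9.46). Among the controls, replicate 1 stood apart in Crat (10.7), Lamb1 (10.5) and Ppp3ca (10.9), replicate 2 in Nox4 (1.37), Nppb (8.97), Pde5a (1.19) and Xdh (11.2), replicate 3 in Stc2 (2.05) and Zfp580 (7.97), and replicate 4 in C2cd4b (7.73), Dnajb6 (11.2), Ifit3 (6.17) and Lifr (6.71). No array held more than 5 of them.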

How the results depend on the processing

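Direction depended most on the scaling and on the quality covariates. As deposited, 327 genes were higher and 132 lower at every bright probe set. Centring each array on its median gave 4952 higher and 9232 lower probe sets and 103 and 340 such genes. Bright probe sets alone, a smaller number tested, gave 5651 higher and 4748 lower and 345 and 140 such genes. The β-actin ratio as covariate left 527 and 493 probe sets and 1 and 3 genes, and the spike-in mean 2373 and 1760 probe sets and 56 and 28 genes. Quantile normalization, both offsets, the 9 arrays alone, no trend, both t-tests and the replicate block kept all 4 counts within 1.5 times. The t-test of the methods gave 8314 and 4941 probe sets after Benjamini-Hochberg, and 9769 and 5779 at a p of 0.05 with no adjustment, a threshold added after the data were seen. The replicate block gave 8285 and 4864. Deviations of same-numbered arrays correlated with r of -0.17 to 0.05, which gave no sign of pairing by number but cannot exclude it. Leaving out 1 array gave 7933 to 8706 higher and 4801 to 5236 lower probe sets, and 303 to 327 and 113 to 130 genes.

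Of 204 named genes, 47 kept direction and side of the threshold with the β-actin ratio as covariate, 147 lost the call and 10 changed sign. With the spike-in mean these were 119, 81 and 4. With the β-actin ratio the changes of sign were Acot1 (1.34), Acta1 (-0.15), Ddah2 (-0.33), Dusp5 (-0.43), Lamb2 (0.11), Nos1 (0.82), Nox4 (-0.057), Nppa (1.14), Nppb (-0.66) and Ppargc1a (0.073). With the spike-in mean they were Lamb2 (0.079), Myh7 (0.17), Ppargc1a (0.15) and Vegfa (0.36). Quantile normalization turned Myh7 (0.23), Nos3 (-0.024), Pde5a (-0.19) and Ppargc1a (0.0065), and centring turned Col3a1 (-0.10), Gucy1a1 (-0.025), Nppb (-0.23) and Pde5a (-0.23). Leaving out 1 array moved Nos2 between -0.92 and 0.46, Nppb between -0.18 and 0.36, and Ppargc1a between -0.078 and 0.045, and the sign turned without L-NAME replicate 2 for Nos2, control replicate 2 for Nppb, and control or L-NAME replicate 4 for Ppargc1a (0.018 and 0.045). Igtp lost its call without control replicate 3 (-0.46) or L-NAME replicate 2 or 3 (-0.50 and -0.49). Acot1 lost its call with an offset of 50 (-0.62). The cause was not tested.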
